A study of Mus musculus with 12 samples.

Results

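The genes described are 10 chromatin regulators, the core subunits of Polycomb repressive complex 2 (Ezh1, Ezh2, Suz12 and Eed) and 6 regulators that are often mutated in human bladder cancer (Kdm6a, Kmt2c, Kmt2d, Arid1a, Ep300 and Crebbp). They were taken by symbol from a count table of 23337 genes. Kmt2c and Kmt2d stand there under their older symbols Mll3 and Mll2, and Kmt2b, which shares the older symbol Mll2, has a row of its own as Wbp7. All 10 passed the filter on low counts, which kept 12406 genes for testing, and their counts ran from 439 (Kdm6a) to 4222 (Kmt2d) per library.

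In GENCODE M21 annotation of mm10, the PRC2 genes lie at chr11:101191115-101226463 (Ezh1, minus strand), chr6:47530139-47595341 (Ezh2, minus strand), chr11:79993106-80034123 (Suz12, plus strand) and chr7:89954654-89980983 (Eed, minus strand). The bladder cancer genes lie at chrX:18162575-18279936 (Kdm6a, plus strand), chr5:25271798-25498783 (Kmt2c, minus strand), chr15:98831669-98871204 (Kmt2d, minus strand), chr4:133679008-133756769 (Arid1a, minus strand), chr15:81585351-81652077 (Ep300, plus strand) and chr16:4081328-4213997 (Crebbp, minus strand).

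RNA was sequenced from 12 cultures of NU1, a line of normal mouse urothelial cells that became immortal by repeated passaging. Every group carried a lentiviral hairpin, either the control hairpin shNT (genotype labelled WT) or the single hairpin sh4 against the cohesin subunit gene Stag2 (genotype labelled Stag2-KD). Cells were taken while proliferating, or on day 7 after confluence in the same medium with rosiglitazone at 1 µM, an agonist of the nuclear receptor PPARγ, and erlotinib at 0.5 µM, an inhibitor of the EGF receptor kinase. The 4 groups, called proliferating control, proliferating knockdown, quiescent control and quiescent knockdown, each had 3 libraries, 1 from each of experiments 5, 7 and 9, and values are given in that order. Quiescence therefore combines confluence, both drugs and time in this design, and the knockdown rests on 1 hairpin in 1 line.

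PRC2 places methyl groups on lysine 27 of histone H3, a mark of silent genes. Ezh2 and its paralog Ezh1 are the alternative catalytic subunits, and Suz12 and Eed are needed for activity. Ezh2 is typically abundant in dividing cells, whereas Ezh1 is found in dividing and non-dividing cells alike. Kdm6a removes this mark and works with Kmt2c and Kmt2d, which place the first methyl group on lysine 4 at enhancers; Arid1a is a DNA-binding subunit of the SWI/SNF remodelling complex, and Ep300 and Crebbp acetylate lysine 27. Loss of KDM6A, KMT2D or ARID1A is frequent in human urothelial tumours, where STAG2 is also recurrently inactivated.

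Library totals ran from 14524429 to 21987539 counts. Stag2 lay between 107 and 145 CPM (counts scaled to equal TMM-adjusted library totals) in the 6 control libraries and between 9.43 and 33.3 CPM in the 6 knockdown libraries, without overlap. Krt7, Krt8, Krt18 and Cdh1 were abundant, whereas the basal factor Trp63 was at 0 in all 12 libraries and the uroplakin gene Upk3a reached at most 0.0453 CPM. The summed markers of fibroblasts reached at most 2.22 CPM (Col1a2 and Col3a1 at 0), those of leukocytes 9.42 CPM (Cd3e at 0) and those of endothelium 0.239 CPM. The 4 libraries of experiment 9 stood apart: the Y-linked genes Ddx3y, Eif2s3y and Kdm5d lay between 14.4 and 35.1 CPM there and at no more than 3.76 CPM in experiments 5 and 7. Values of experiment 9 can be read on their own in each series of values. The labels number the experiments as batches too, each with 1 library of every group, and nothing says more about how the cultures were separated, so p-values measure the spread between these cultures. In bulk RNA, fewer cells of a type and less RNA per cell cannot be told apart.

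In control cells, quiescence was accompanied by opposite changes in the PRC2 catalytic subunits: Ezh2 fell 3.81-fold and Ezh1 rose 1.93-fold, while Suz12 fell 1.62-fold and the methyltransferase gene Kmt2c rose 1.5-fold. The other 6 genes did not pass the test. The 4 calls (2 higher, 2 lower) stood against 20.0% of all tested genes, 8.33% higher and 11.7% lower, in edgeR's quasi-likelihood test at an adjusted p of 0.05. With a term for experiment, the same 4 were called beside 35.3% of all genes (16.8% higher, 18.5% lower). The median log2 fold change was 0.20 over the 10 genes and 0.0047 over all genes, and the median absolute change was 0.35 and 0.34, so the typical size of change in the set was close to that of all genes. Below, groups without overlap are described gene by gene, and the share of all tested genes without overlap is not given.

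**Figure D1:**
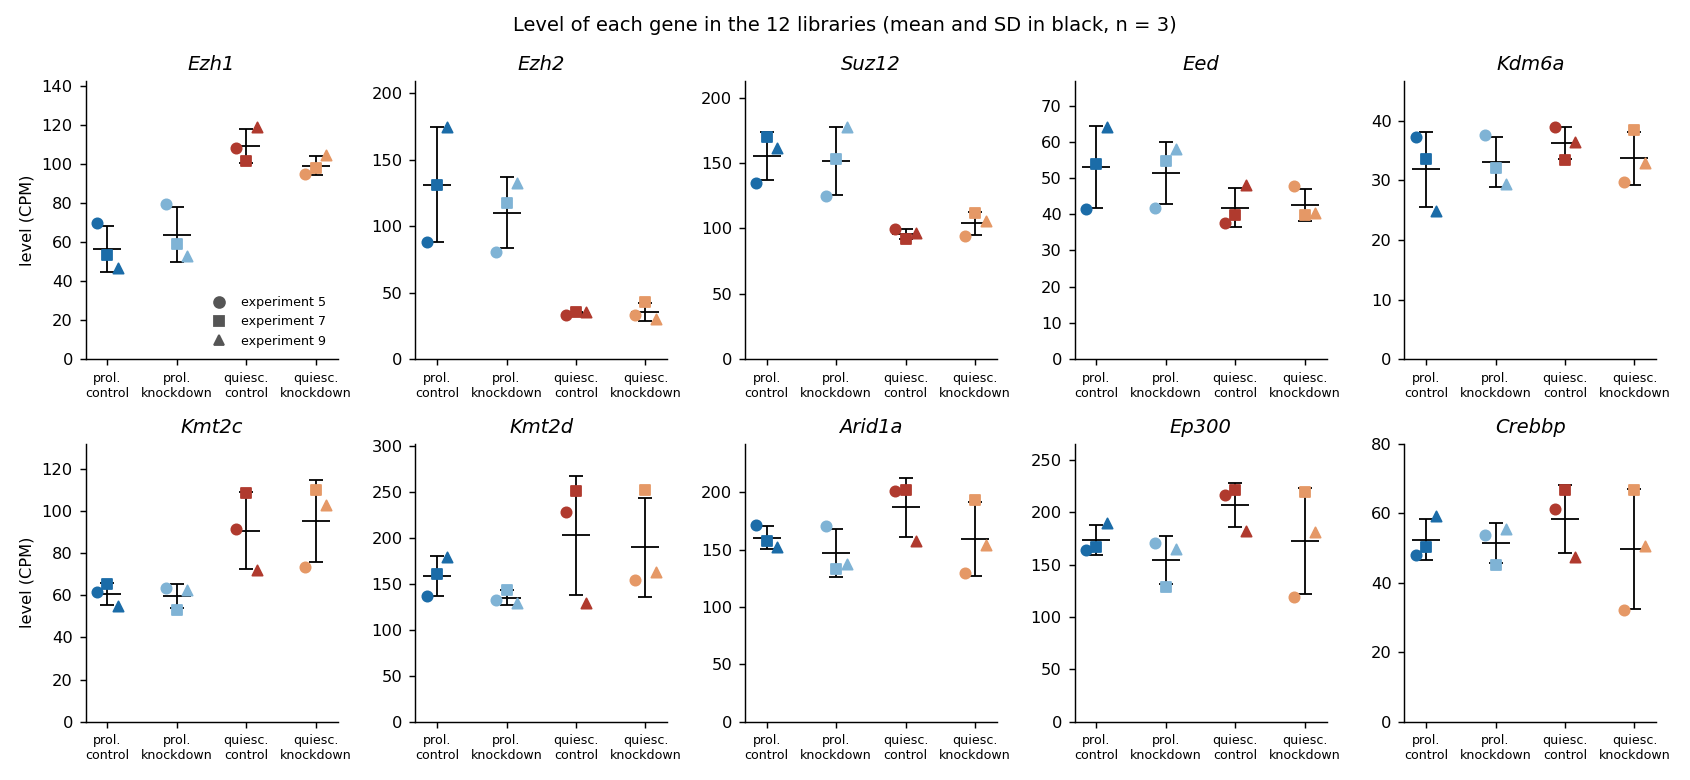
Level of each of the 10 genes in CPM (vertical axes, each from 0) in the 4 groups, with 1 point per library, marker shapes for experiments 5, 7 and 9, and the group mean ± SD in black. Ezh2 and Suz12 are lower and Ezh1 and Kmt2c higher in all 3 quiescent control libraries than in any proliferating control library. The share of all tested genes that separate in this way is not given here.

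Ezh2 was measured at 87.9, 131 and 174 CPM in proliferating control cells and at 32.9, 35.1 and 35.3 CPM in quiescent control cells. The quiescent libraries lay close together, whereas the proliferating ones were widely spread (131 ± 43.2 CPM, SD, n = 3). Quiescence minus proliferation was -1.93 on the log2 scale (SE 0.25, edgeR adjusted p = 0.00054), and within experiments 5, 7 and 9 it was -1.41, -1.90 and -2.30. Ezh2 stayed called without any single library and without any single experiment. The 4 libraries of experiment 9 gave the largest fall, and without them the log2 fold change was -1.68 (edgeR adjusted p = 0.014).

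Ezh1 moved the other way, from 69.7, 53.3 and 46.9 CPM in proliferating control cells to 108, 102 and 119 CPM in quiescent control cells. The groups did not overlap, and the highest proliferating library was that of experiment 5, in which Ezh2 was lowest. The fitted log2 difference was 0.95 (SE 0.17, edgeR adjusted p = 0.0036), with within-experiment differences of 0.63, 0.93 and 1.34. Without experiment 9 it was 0.78 with an edgeR adjusted p of 0.052, and without experiment 7 it was 0.96 with 0.088, neither under the threshold of 0.05.

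Levels of the 2 paralogs were compared per kilobase of exon, using the union of exons, so that their share of the sum could be read within each library. In proliferating control cells Ezh1 made up 41.6%, 26.7% and 19.5% of the sum of Ezh1 and Ezh2, and in quiescent control cells 74.7%, 72.3% and 75.2%. Ezh2 was thus the more abundant transcript in all 3 proliferating control libraries and Ezh1 in all 3 quiescent ones. The log2 ratio of Ezh1 to Ezh2 went from -1.33 ± 0.786 to 1.51 ± 0.115 (SD, n = 3), a difference of 2.84 or 7.18-fold, with an exact two-sided permutation p of 0.1, the smallest that 3 against 3 libraries allow. Within experiments 5, 7 and 9 the difference was 2.05, 2.84 and 3.65. An exact sign-flip test over these 3 pairs gives a p of 0.25, its smallest possible. Leaving out any 1 library gave differences between 2.49 and 3.26. Their summed level went from 27.2 ± 4.95 to 19.9 ± 1.23 CPM per kilobase (SD, n = 3).

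**Figure D2:**
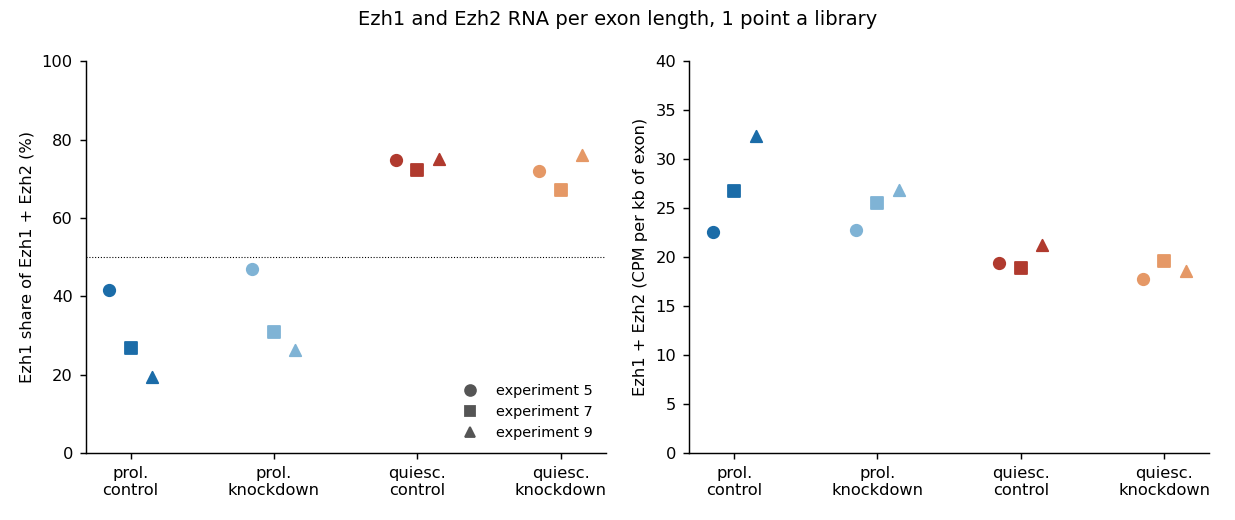
Share of Ezh1 in the sum of Ezh1 and Ezh2 per kilobase of exon (percent, left) in the 4 groups, and the sum itself in CPM per kilobase (right), with 1 point per library, marker shapes for experiments and a dotted line at equal shares. All 6 proliferating libraries lie at or below 47.0% and all 6 quiescent libraries at or above 67.1%.

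The same switch was seen in knockdown cells. Ezh2 went from 80.5, 118 and 132 CPM to 33.2, 43.2 and 29.8 CPM, and Ezh1 from 79.6, 58.9 and 52.7 CPM to 95, 98.2 and 105 CPM. Neither pair of groups overlapped. Ezh2 fell by 1.64 on the log2 scale (SE 0.25, edgeR adjusted p = 0.0017) and Ezh1 rose by 0.64 (SE 0.17, edgeR adjusted p = 0.026). The Ezh1 share was 47.0%, 31.0% and 26.4% in proliferating and 72.0%, 67.1% and 76.0% in quiescent knockdown cells, a 4.88-fold change of the ratio (exact two-sided permutation p = 0.1, the smallest possible). An exact sign-flip test over the 3 pairs (1.53, 2.18 and 3.14 on the log2 scale) gives a p of 0.25, its smallest possible.

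Suz12, the scaffold of PRC2, was measured at 134, 170.0 and 162 CPM in proliferating and 99.3, 91.9 and 96.4 CPM in quiescent control cells. Every quiescent library was below every proliferating one. It fell by 0.70 on the log2 scale (SE 0.14, edgeR adjusted p = 0.0062) in control cells and by 0.55 (SE 0.14, edgeR adjusted p = 0.021) in knockdown cells, where it went from 125, 153 and 177 CPM to 94.1, 112 and 105 CPM. In control cells the call was kept without any single library, but not without experiment 7 (-0.60, edgeR adjusted p = 0.15) or experiment 9 (-0.67, 0.072). In knockdown cells it was kept in 8 of 12 fits with 1 library left out, as were those of Ezh1 and Kmt2c. Without experiment 9 the knockdown-cell calls of Ezh1 (0.48, edgeR adjusted p = 0.18), Suz12 (-0.43, 0.20) and Kmt2c (0.65, 0.12) were lost, and without experiment 7 these 3 were lost too, while Ezh2 was kept.

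Eed, the subunit that binds the methyl mark, was measured at 41.4, 53.9 and 64.0 CPM in proliferating and 37.7, 39.8 and 48.1 CPM in quiescent control cells. The groups overlapped, and the log2 fold change of -0.34 (95% interval -0.74 to 0.05, edgeR adjusted p = 0.20) did not pass. In knockdown cells it was -0.27 (edgeR adjusted p = 0.32), so a fall of the size of that of Suz12 lies within the interval in control cells but was not detected.

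Because 3 of the 4 core PRC2 genes moved with the state of the cells, their RefSeq promoters (GRCm38.p6, 250 bases before to 50 after the start) were searched for 2 kinds of letters known from cell cycle promoters. For E2F factors these were TTTCCCGC, TTTGGCGC, TTTCGCGC and TTTGCCGC, and for the cell cycle genes homology region (CHR), which the DREAM complex contacts, TTTGAA, each on both strands. An E2F match was found in 2.26% of 32851 promoters of this length, a CHR match in 17.9% and both in 0.274%. The windows of 30 bases that hold the matches are shown for the PRC2 genes, 5′ to 3′ on the strand of the gene, with matches in capitals (TTCAAA is TTTGAA read on the other strand).
Ezh2, chr6:47595009-47595038, minus strand: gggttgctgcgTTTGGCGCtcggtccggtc
Suz12, chr11:79992883-79992912, plus strand: tcatTTTCCCGCgaattcagTTCAAAgagg
Eed, chr7:89981149-89981178, minus strand: tagatTTTGAAtctctcccTTCAAAaaaag
The Ezh2 window spans the start site, the Suz12 window holds both kinds of match without overlap, and the Eed window holds the CHR letters on each strand. Eed did not pass the test for quiescence. Ezh1, the PRC2 gene that rose, had neither match in this window, like most of the promoters searched. Among the other members, a match was found at 1 of the 2 Arid1a starts only, shown because Arid1a did not move with quiescence, with E2F letters and no CHR letters:
Arid1a, chr4:133754022-133754051, minus strand: tccctccctccTTTCCCGCcccctccccct
A match describes letters, not binding, and these data hold no measurement of binding. The part of these letters in the changes was not tested.

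Genes of the G1/S transition, among them Mcm5, Ccne2 and Cdc6, moved in the direction of Ezh2. In control cells 15 of 15 fell with quiescence, beside 11.7% of all genes, with a median log2 fold change of -2.70, and the summed proliferation markers Mki67, Top2a, Ccnb1, Cdk1 and Bub1 went from between 653 and 857 CPM to between 8.28 and 42.2 CPM. In knockdown cells the sum was 432 to 1034 CPM in proliferating and 22.3 to 107 CPM in quiescent libraries. The part of the proliferation state in the Ezh2, Suz12 and Ezh1 changes was not tested.

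Kdm6a, the X-linked demethylase of lysine 27, had overlapping levels in all groups: 37.3, 33.5 and 24.9 CPM in proliferating control cells, 37.7, 32.2 and 29.4 CPM in proliferating knockdown cells, 38.9, 33.5 and 36.5 CPM in quiescent control cells, and 29.7, 38.5 and 32.9 CPM in quiescent knockdown cells. The quiescence change was 0.19 in control cells (95% interval -0.18 to 0.55, edgeR adjusted p = 0.46) and 0.03 in knockdown cells (edgeR adjusted p = 0.93).

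Uty, the Y-linked paralog of Kdm6a, separated the experiments instead of the groups. It lay between 8.32 and 15.4 CPM in the 4 libraries of experiment 9 and between 0.551 and 1.98 CPM in the 8 libraries of experiments 5 and 7 (edgeR adjusted p = 5.98e-05 for experiment). Kdm6a did not pass that test (edgeR adjusted p = 0.38).

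**Figure D3:**
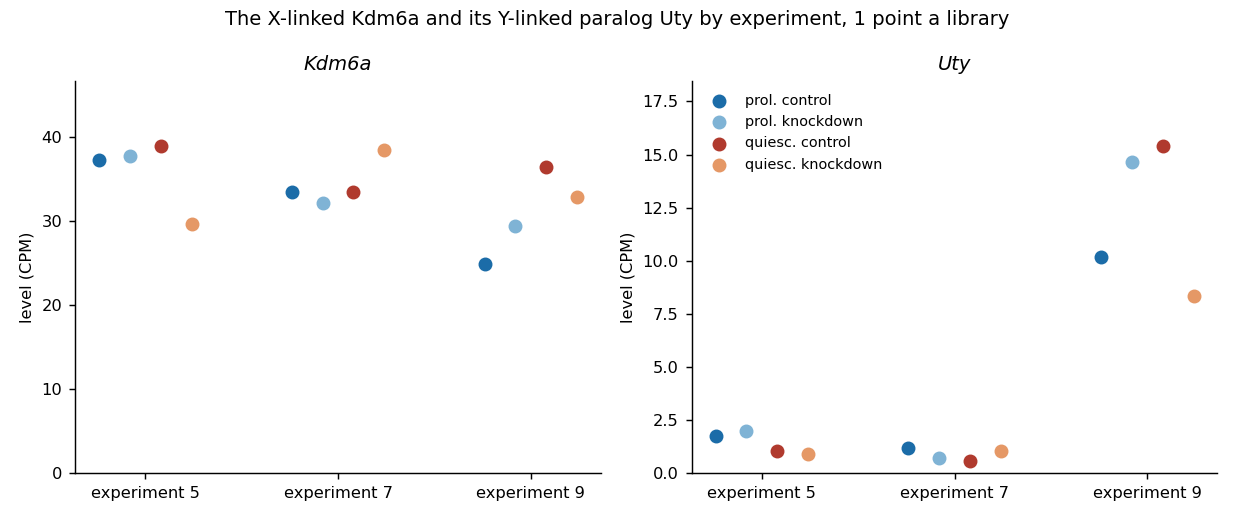
Level of Kdm6a (left) and of its Y-linked paralog Uty (right) in CPM by experiment (horizontal axis), with 1 point per library coloured by group. Uty lies between 8.32 and 15.4 CPM in the 4 libraries of experiment 9 and at or below 1.98 CPM in the other 8, whereas the Kdm6a levels of all groups overlap.

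Kmt2c, a lysine 4 methyltransferase of the COMPASS family, was measured at 61.5, 65.3 and 55.0 CPM in proliferating and 91.2, 108 and 72.2 CPM in quiescent control cells. The groups did not overlap, and the quiescent library of experiment 9 was the lowest of its group. It rose by 0.58 on the log2 scale (SE 0.18, edgeR adjusted p = 0.042). In knockdown cells levels went from 63.6, 53.1 and 62.3 CPM to 73.3, 109.9 and 103 CPM, a change of 0.68 (SE 0.18, edgeR adjusted p = 0.024). The call was fragile: in control cells it was kept in 5 of 12 fits with 1 library left out, and it was lost without experiment 5, 7 or 9 (0.59, 0.49 and 0.66).

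Kmt2d, its close paralog, was measured at 136, 160.1 and 179 CPM in proliferating and 228, 251 and 129 CPM in quiescent control cells. The groups overlapped through experiment 9, where the level went down by 0.47 on the log2 scale against rises of 0.74 and 0.65 in experiments 5 and 7. The fitted change was 0.35 (95% interval -0.18 to 0.89, edgeR adjusted p = 0.33). In knockdown cells the change was 0.49 (edgeR adjusted p = 0.19), with every quiescent library (154, 252 and 163 CPM) above every proliferating one (133, 144 and 129 CPM).

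Arid1a was measured at 171, 158 and 153 CPM in proliferating and 201, 202 and 157 CPM in quiescent control cells, with overlapping groups and a log2 fold change of 0.22 (95% interval -0.14 to 0.58, edgeR adjusted p = 0.38). The acetyltransferase Ep300 was measured at 164, 166 and 190.0 CPM in proliferating and 216, 221 and 182 CPM in quiescent control cells (0.25, edgeR adjusted p = 0.40), and its paralog Crebbp at 48.0, 50.2 and 59.2 CPM against 61.1, 66.6 and 47.5 CPM (0.16, edgeR adjusted p = 0.67). For each of these 3 genes the proliferating and quiescent levels overlapped, and the quiescent library of experiment 9 was the lowest of the 3 quiescent control libraries.

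**Figure D4:**
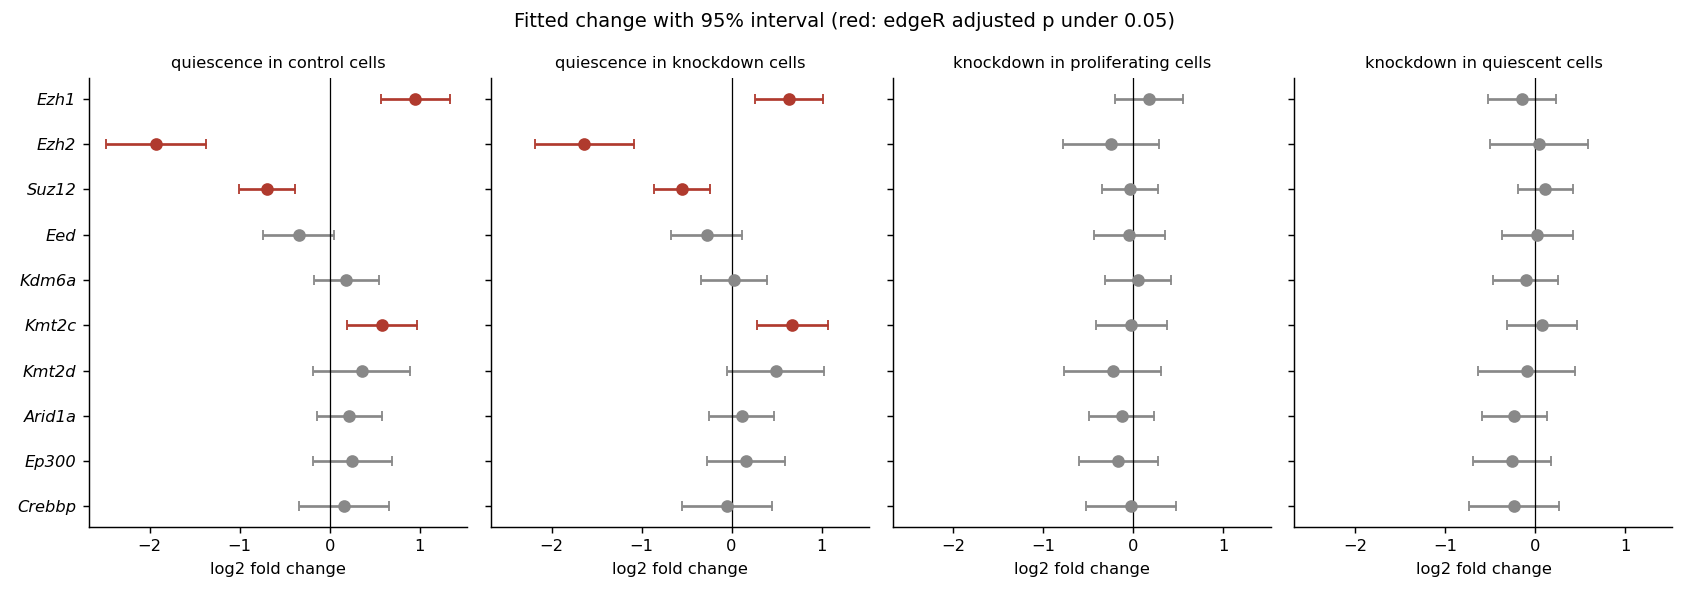
Log2 fold change of each of the 10 genes, with 95% intervals, for quiescence in control and in knockdown cells and for knockdown in proliferating and in quiescent cells; red points passed an edgeR adjusted p of 0.05. Ezh1, Ezh2, Suz12 and Kmt2c are red in both quiescence comparisons and no gene is red in either knockdown comparison.

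In knockdown cells quiescence called the same 4 genes as in control cells, 2 higher and 2 lower, against 18.4% of all tested genes (7.59% higher, 10.8% lower). With a term for experiment the same 4 were called beside 33.0% of all genes (15.9% higher, 17.2% lower). The difference of the changes between control and knockdown cells was tested as an interaction. None of the 10 passed (edgeR adjusted p = 0.9997 for all), 0 had an unadjusted p under 0.05, and DESeq2 also called 0. No gene of the table passed that interaction test, with 219 under an unadjusted p of 0.05.

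Knockdown of Stag2 left all 10 genes below the threshold. In proliferating cells 0 of 10 were called, beside 0.0242% of all tested genes. An unadjusted p under 0.05 was reached by 0 of 10, beside 1.84% of all tested genes, and DESeq2 called 0, beside 12 genes of the whole table. The fitted log2 fold changes ran from -0.25 (Ezh2) to 0.17 (Ezh1). In quiescent cells 0 of 10 were called (0 at an unadjusted p under 0.05, and 0 by DESeq2), beside 0.435% of all tested genes, and 3.55% with a term for experiment. The fitted changes there ran from -0.26 (Ep300) to 0.11 (Suz12). The 95% intervals of the 10 genes reached from -0.79 to 0.55 in proliferating and from -0.73 to 0.58 in quiescent cells.

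Ezh1 was the one member whose knockdown differences pointed the same way in every experiment within each state and opposite ways between the states. It was higher in knockdown cells in 3 of 3 experiments while proliferating (0.19, 0.14 and 0.17 on the log2 scale) and lower in 3 of 3 when quiescent (-0.19, -0.05 and -0.18). The knockdown and control groups overlapped in both states, and the share of all tested genes with this pattern of signs is not given. The Ezh1 to Ezh2 log2 ratio differed between knockdown and control by 0.40 in proliferating and -0.16 in quiescent cells (exact two-sided permutation p = 0.6 for each). In proliferating cells it was higher with knockdown in 3 of 3 experiments (0.32, 0.30 and 0.57), for which an exact sign-flip test over 3 pairs gives 0.25, its smallest possible p. In quiescent cells the paired differences were -0.20, -0.35 and 0.06, with an exact sign-flip p of 0.5.

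Of the quiescent knockdown libraries, that of experiment 5 held the lowest level of its group for Arid1a (129.6, 194 and 154 CPM), Ep300 (119, 219 and 181 CPM), Crebbp (32.2, 66.7 and 50.4 CPM), Kmt2d and Kmt2c, each with more than 10 kb of exon. Shorter members were lowest there too: Kdm6a (29.7, 38.5 and 32.9 CPM), Ezh1 (95, 98.2 and 105 CPM) and Suz12 (94.1, 112 and 105 CPM). Their exons cover 8383, 7440 and 4945 bases. Ezh2 and Eed were not lowest there. In that library, against its control, the median log2 difference was -0.37 over 1105 genes with more than 10 kb of exon and 0.30 over 3096 genes with less than 3 kb; in experiments 7 and 9 these medians lay between -0.0057 and 0.02. For quiescence in knockdown cells in experiment 5 the medians were -0.29 for long and 0.20 for short genes. The members with more than 10 kb of exon differed there by -0.40 (Arid1a), -0.52 (Ep300), -0.74 (Crebbp), 0.22 (Kmt2d) and 0.20 (Kmt2c). A shift with exon length was also present in experiment 7 for knockdown in proliferating cells (-0.15 for long and 0.11 for short genes). It was present there for quiescence in knockdown cells too (0.21 and -0.12), where Kmt2c differed by 1.05. The part of this shift in the changes of these long genes was not tested. Within experiment 5 the differences of quiescent knockdown minus quiescent control were -0.64 for Arid1a, -0.86 for Ep300, -0.92 for Crebbp, -0.56 for Kmt2d and -0.31 for Kmt2c. Without this library the fitted knockdown changes were -0.10, -0.05, 0.00, 0.03 and 0.23 and none passed. For quiescence in knockdown cells without it, Ezh2 (-1.60, edgeR adjusted p = 0.011) and Kmt2c (0.83, 0.013) passed, and Ezh1 (0.67, 0.059) and Suz12 (-0.48, 0.078) did not.

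Experiment was tested for all 10 genes in a fit with both group and experiment terms. None passed in edgeR, beside 21.1% of all tested genes, and DESeq2 called 0, beside 3643 genes of the whole table. Ezh2 came closest with an unadjusted p of 0.0515 and an adjusted p of 0.13. No member had an unadjusted p under 0.05, beside 39.6% of all tested genes.

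Per kilobase of exon, Suz12 had the highest level of the 10 in every group, 31.4 ± 3.77 CPM per kilobase in proliferating and 19.4 ± 0.755 in quiescent control cells (SD, n = 3). Ezh2 was second in proliferating control cells at 19.6 ± 6.47 and seventh in quiescent ones at 5.16 ± 0.197, whereas Ezh1 went from seventh at 7.61 ± 1.58 to the third rank at 14.7 ± 1.17. Arid1a at 14.0 ± 0.844, Eed at 13.9 ± 2.96 and Ep300 at 12.2 ± 1.00 stood next to one another in proliferating control cells; Arid1a and Eed, and Eed and Ep300, differed by less than the spread of Eed. Kmt2c at 2.99 ± 0.256, Kdm6a at 3.81 ± 0.753 and Crebbp at 3.87 ± 0.440 were the lowest 3 there, and in quiescent control cells the same genes lay between 4.31 and 4.47 CPM per kilobase.

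The genes with profiles over the 12 libraries nearest to that of Ezh2, by root mean square distance of mean-centred log2 CPM, were Shmt1 (0.113), a serine hydroxymethyltransferase, Wdr76 (0.116) and Kpna2 (0.119), an importin. All tested genes lay at a median distance of 0.977 from Ezh2. Nearest to Ezh1 were Calcoco1 (0.0788), Ppp2r5b (0.113), a regulatory subunit of protein phosphatase 2A, and Mfsd6 (0.122), against a median of 0.550. Ep300 was the third nearest gene to Crebbp (0.119), its paralog, and these distances are over 12 libraries that share states and experiments.

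The partners of these regulators that passed for quiescence moved in both directions. Over the 7 lists, 18 of 116 tested genes (15.5%) passed in control cells, beside 20.0% of all genes, and 39 (33.6%) with a term for experiment, beside 35.3%. The 116 are not all partners: they include 18 Hox genes and 10 other chromatin genes mutated in bladder cancer, of which 0 passed in control cells. In knockdown cells 25 of 116 (21.6%) passed, beside 18.4% of all genes. Without experiment 7 or 9 the control counts of the PRC2, PRC1, COMPASS and SWI/SNF lists were between 0 and 2.

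Of 10 tested accessory subunits of PRC2, 4 passed in control cells (1 higher, 3 lower; all genes 20.0%), 7 (2 higher, 5 lower; all genes 35.3%) with a term for experiment. Phf19, which helps recruit PRC2 to chromatin, fell by 3.29 on the log2 scale (4.09 to 0.407 CPM, edgeR adjusted p = 0.0032), Epop fell by 1.43 (28 to 10.4 CPM) and the histone-binding Rbbp7 fell by 0.54 (220.3 to 151 CPM), whereas Jarid2 rose by 0.54 (23.8 to 34.7 CPM). The median change of the 10 was -0.37, beside 0.0047 over all genes. In knockdown cells 4 passed as well (1 higher, 3 lower; all genes 18.4%). With 1 library left out the count ranged from 1 to 4 in control and from 0 to 4 in knockdown cells.

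Of 23 tested PRC1 genes, 6 (26.1%) passed in control cells (3 higher, 3 lower; all genes 20.0%), 12 (8 higher, 4 lower; all genes 35.3%) with a term for experiment, with a median of 0.08. Cbx6 (0.70; 239.7 to 389 CPM), Bcorl1 (0.62) and Pcgf2 (0.45) rose, and Scmh1 (-0.77), Cbx2 (-0.72) and Phc2 (-0.68; 257 to 160.3 CPM) fell. Proteins of the Cbx family read the lysine 27 mark. In knockdown cells 8 PRC1 genes passed (5 higher, 3 lower; all genes 18.4%). With 1 library left out the count ranged from 4 to 8 in control and from 3 to 8 in knockdown cells.

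Of 15 tested COMPASS and lysine 27 demethylase partners, 1 (6.67%) passed in control cells, beside 20.0% of all genes (11.7% lower). It was Paxip1 (-0.70, 56.7 to 34.8 CPM), and the median of the list was -0.07. With a term for experiment 3 (20.0%), all lower, passed, beside 35.3% of all genes (18.5% lower). Of 23 tested SWI/SNF subunits 5 (21.7%) passed (2 higher, 3 lower), close to the 20.0% of all genes, and 7 (2 higher, 5 lower; all genes 35.3%) with a term for experiment. The ATPase gene Smarca2 rose by 0.46 (70.9 to 97.7 CPM) and Bcl7b by 0.53, while Bcl7c fell by 0.69, Actl6a by 0.60 and Smarce1 by 0.53 (220.4 to 153 CPM). The median of these subunits was -0.21. In knockdown cells 2 COMPASS partners, both lower, and 5 SWI/SNF subunits (2 higher, 3 lower) passed, beside 18.4% of all genes. With 1 library left out the SWI/SNF count ranged from 2 to 5 in control and from 0 to 6 in knockdown cells, and the COMPASS count from 1 to 2 and from 0 to 2.

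Of 17 tested acetyltransferases and deacetylases other than Ep300 and Crebbp, 2 (11.8%) passed, both higher, beside 20.0% of all genes, and 5 (3 higher, 2 lower; all genes 35.3%) with a term for experiment: Hdac5 (2.72; 4.93 to 32.6 CPM, edgeR adjusted p = 0.0012) and Hdac11 (1.18; 22.4 to 50.6 CPM, edgeR adjusted p = 0.00044). Both are deacetylases, and the median of the list was -0.13. In knockdown cells 5 passed (2 higher, 3 lower; all genes 18.4%), and 2 to 5 with 1 library left out. Of 10 tested other chromatin genes mutated in bladder cancer, 0 passed in edgeR for quiescence in control cells, beside 20.0% of all genes. An unadjusted p under 0.05 was reached by 1, and DESeq2 called 1. With a term for experiment 1 (10.0%), Chd6, passed, beside 35.3% of all genes.

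**Figure D5:**
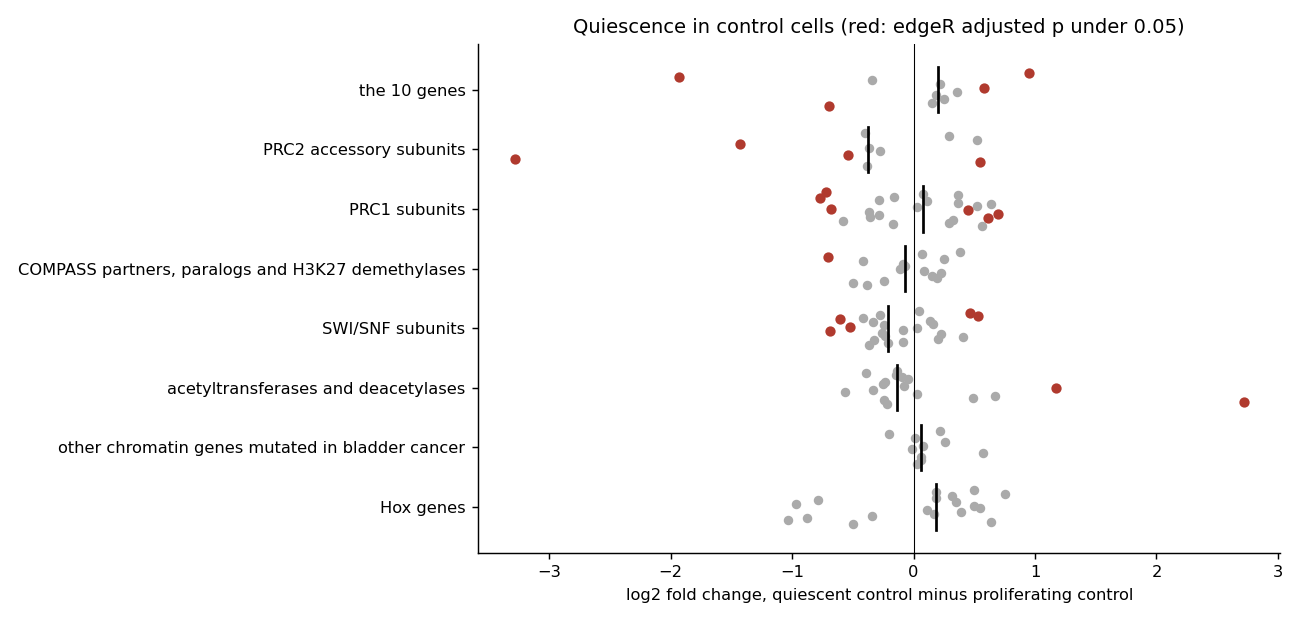
Log2 fold change of quiescence in control cells for the 10 genes and the tested genes of each chromatin list, with 1 point per gene, red where the edgeR adjusted p was under 0.05, and a bar at the list's median. Medians of the 7 lists lie between -0.37 for PRC2 accessory subunits and 0.19 for Hox genes.

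Hox genes are classic targets of PRC2 silencing. Of 39 listed genes 18 had enough counts to be tested. None passed in edgeR for quiescence in control cells, beside 20.0% of all genes, with a median of 0.19. An unadjusted p under 0.05 was reached by 1, and DESeq2 called 1. With a term for experiment 4 (22.2%) passed, 2 higher and 2 lower, beside 35.3% of all genes. Hoxa5 was the one called in knockdown cells (-1.74, edgeR adjusted p = 0.040), beside 18.4% of all genes. Its call was kept in 4 of 12 fits with 1 library left out. It was lost with a mean count of at least 50 or with any 1 experiment left out. Experiment, in contrast, was passed by 10 of 18, beside 21.1% of all genes. Of these, 6 had their lowest mean in experiment 9 (Hoxb3, Hoxb5, Hoxb8, Hoxd3, Hoxd4 and Hoxd8) and 4 their highest there (Hoxa3, Hoxa4, Hoxa7 and Hoxb13). Those 4 had low levels: Hoxa3, Hoxa4 and Hoxa7 reached at most 4.21, 2.33 and 3.64 CPM. Hoxb13 lay at or below 0.119 CPM in experiments 5 and 7 and between 0.645 and 1.25 CPM in experiment 9. It therefore passed the filter on low counts only through experiment 9, so its call for experiment carries no weight of its own.

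After knockdown, 0 of the 116 tested genes of these 7 lists were called in edgeR in either state. In proliferating cells 0 had an unadjusted p under 0.05 and DESeq2 called 0. In quiescent cells 14 did (12.1%, beside 12% of all genes), DESeq2 called 2, and a term for experiment called 2 (1.72%, beside 3.55% of all genes), Phf19 (1.64, edgeR adjusted p = 0.049) and Men1 (-0.47, edgeR adjusted p = 0.034). Of the 15 G1/S genes, Mcm5 (1.5) and Ccne2 (3.01) rose with knockdown in quiescent cells, beside 0.435% of all genes (6 genes with a term for experiment, beside 3.55%). An unadjusted p under 0.05 was reached by 11 of 15 (73.3%, beside 12% of all genes), and DESeq2 called 5. The median log2 fold change of the 15 was 0.62, beside 0.016 over all genes. The edgeR count of 2 was kept in 1 of 12 fits with 1 library left out, was 1 in the other 11, and was 0 without any one experiment. Ezh2 differed by 0.04 (95% interval -0.50 to 0.58).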

How the data were processed

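The values deposited by the authors were unnormalized counts of reads per gene symbol in 12 libraries of polyadenylated RNA made with a stranded kit. The submitters' processing notes name Bowtie, TopHat, HTSeq, DESeq2 and the build mm10; the annotation and the strand setting of counting are not given in the sources used here, so overlapping or antisense genes and close paralogs may share reads. ERCC spike-ins were added per the labels' protocols, but the table has 0 ERCC rows.

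Counts were tested in R 4.3.3 with edgeR 4.0.16: filterByExpr (minimum count 10), TMM scaling, 4 group means over 12 libraries (8 residual degrees of freedom), glmQLFTest and Benjamini-Hochberg adjustment over 12406 genes, threshold 0.05. CPM used TMM-scaled totals, and within-experiment differences are of log2 CPM with a prior count of 2. Other programs were DESeq2 1.42.0 and python 3.11.15. The fit was tested on simulated data with 200 changed genes. Replicates of a group differed by far more than sampling noise (chi-square per degree of freedom 36.6 to 99.7). Alternatives were the replicate block, other scalings, DESeq2, other filters, only the libraries of a contrast, and each library left out. Leaving out whole experiments was added after seeing the data.

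Experiment numbers pair the libraries, since the labels give them as batches. Deviations from group means correlated at 0.53 on average in 18 same-numbered pairs (0.225 to 0.789) and -0.26 in 36 others. The value of the other pairs largely follows from centring each group on its own mean, so it is no separate evidence for the pairing.

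Exon lengths and loci came from GENCODE M21 and promoters from RefSeq. The members and lists were chosen with earlier results of these data known. Genes named beyond the members were Stag2, up to 3 called genes each way per list for quiescence in control cells, listed genes called after knockdown, and the 3 nearest profiles. Uty and other Y-linked genes, the Hox genes by experiment, Hoxa5, Chd6 and Men1 were chosen after their values were seen.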

Additional observations from a re-analysis of the deposited data

Results flagged for a closer look

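The fitted knockdown effect of Ezh1 had opposite signs in the states, 0.17 in proliferating and -0.14 in quiescent cells, and neither passed (edgeR adjusted p = 0.9998 and 0.82). With 1 library left out, the effect in proliferating cells ranged from -0.02 to 0.35, so its sign was not stable. Knockdown minus control was positive in 3 of 3 proliferating experiments and negative in 3 of 3 quiescent ones, and the effect in quiescent minus proliferating cells was -0.31 on the log2 scale (SE 0.24). The test of this difference did not pass (edgeR adjusted p = 0.9997, and -0.31 with 0.9989 with a replicate block).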

How the results depend on the processing

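Over 50 results for single members, with the test for experiment not counted, 1055 of 1090 alternative values stayed on their side of the threshold. Of these, 69 were uncalled values that changed sign. The other 35 kept their direction but lost the call, 0 gained a call and 0 called values reversed. The number of members called for quiescence in control cells fell from 4 to 1 without experiment 7 and to 1 without experiment 9 (Ezh2 in both cases), and for quiescence in knockdown cells likewise from 4 to 1 without experiment 7 and 1 without experiment 9; these fits hold 8 libraries. With single libraries left out it ranged from 3 to 4 in control and from 1 to 4 in knockdown cells, and for experiment from 0 to 1. The calls gained for experiment were Ezh2 without the quiescent knockdown library of experiment 9 (edgeR adjusted p = 0.032) and Eed without that of experiment 5 (edgeR adjusted p = 0.017). The replicate block changed no call of a member. Over single libraries left out, the difference in the log2 ratio of Ezh1 to Ezh2 ranged from 0.01 to 0.82 for knockdown in proliferating cells, -0.32 to -0.0016 in quiescent cells, 2.49 to 3.26 for quiescence in control cells and 2.01 to 2.67 in knockdown cells. Other scalings moved the median log2 fold change of all genes by at most 0.046.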
